A study of Homo sapiens with 9 samples.

Results

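HUCCT-1 (HuCCT-1) is an established human cell line derived from an intrahepatic cholangiocarcinoma (CCA), a cancer of the bile duct epithelium. The data described here are the transcriptome of these cells after transfection with scrambled siRNA, a control siRNA without an intended target gene. They comprised the 3 arrays labelled as control, titled NTC and numbered 1 to 3, of 9 arrays in the series, and covered 37201 genes that could be named. The other 6 arrays hold HUCCT-1 cells with siRNA combinations against YAP and TAZ and were not used. Cells were transfected directly after trypsinization with a lipid reagent, siRNA was given at 40 nM in total, and total RNA was collected 24 h later. All cells were kept in medium with fetal bovine serum. No untransfected HUCCT-1 cells were analysed here, so every value belongs to transfected cells of 1 line in culture, and what the lipid reagent and the siRNA added to it cannot be told apart from the state of the line. The labels number the 3 samples but do not say whether they came from separate cultures.

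Cholangiocytes, the cells that line the bile ducts, are polarised epithelial cells that modify bile by moving water, chloride and bicarbonate. They carry keratin 7 and keratin 19 in addition to the keratin 8 and keratin 18 that hepatocytes also have, and they arise from the same progenitors as hepatocytes under the control of SOX9 and Notch signalling. CCA cells often keep parts of this programme and typically secrete growth factors, chemokines and proteases.

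A level is given as the log2 signal of the array, so a difference of 1 is a doubling of signal. Errors are standard deviations (SD) over the 3 arrays. Log2 signals have no zero, so genes that other tissues use were taken as a measure of background. The 357 olfactory receptor genes, odour receptors of the nasal epithelium, had a median of 4.66 and ranged between 3.29 and 6.47. Their 95th percentile, 5.79, is called the lower level here. The 90 genes of the keratin-associated proteins, structural proteins of hair, gave a higher 95th percentile of 7.19, called the upper level, and 39 of them lay above the lower level. Of the 36844 named genes other than olfactory receptors, 18927 (51.4%) were above the lower level. Among the 17854 protein-coding genes, 12860 (72.0%) were above the lower level, 7108 (39.8%) were above the upper level and 1786 (10.0%) formed the top 10% by mean signal, above 8.90. The 5752 protein-coding genes between both levels cannot be called expressed or silent from these arrays. The highest keratin-associated protein gene reached 7.90. In every list, a mean above the upper level but below 7.90 is therefore still within the range of a family taken as silent. Signals rank probe sets and not RNA amounts, because each probe set binds with its own efficiency: EEF1A1, which encodes a translation factor that every cell needs, reached only 7.44 ± 0.068.

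The arrays differed little. Pearson correlations over the named genes were 0.990 between replicates 1 and 2, 0.989 between replicates 1 and 3 and 0.992 between replicates 2 and 3. These describe 3 arrays with the same probes and carry no test. The median SD was 0.0777 among 18945 genes above the lower level, 0.0587 among protein-coding genes above the upper level and 0.124 among 18256 genes at or below the lower level. Above the lower level, 7, 10 and 7 genes differed by more than 1 between the pairs of arrays in the same order.

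**Figure D1:**
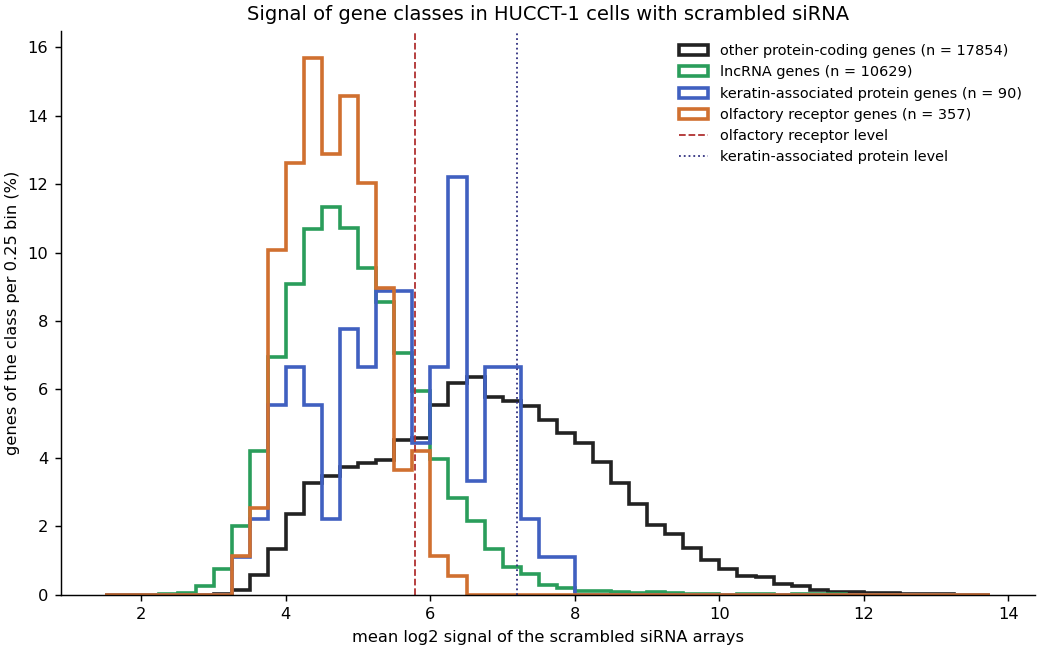
Distribution of the mean log2 signal of the 3 scrambled siRNA arrays (x axis) as the percentage of the genes of each class per bin (y axis), with the lower level (dashed) and the upper level (dotted). Olfactory receptor genes ended at 6.47, whereas other protein-coding genes had a median of 6.75 and a long shoulder above both levels.

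The highest signals of protein-coding genes came from metal binding, matrix, cytoskeleton and ribosome genes. MT2A, a metallothionein that binds zinc and copper, gave 13.14, 13.14 and 13.03 on replicates 1, 2 and 3. THBS1, which encodes the secreted matrix protein thrombospondin 1, gave 13.03, 13.03 and 13.14. Their ranges over the arrays overlapped, and both overlapped that of TMSB4X, an actin-sequestering peptide (13.07, 12.91 and 12.97). The ribosomal gene RPL5 (12.91, 13.01 and 13.01) overlapped TMSB4X and lay below MT2A and THBS1 on every array. Next came the actins ACTG1 (12.95 ± 0.013) and ACTB (12.81 ± 0.062), the ribosomal genes RPS25 and RPL3, TGM2 (12.80 ± 0.044), a transglutaminase that cross-links proteins, and the chaperone gene HSPA8 (12.72 ± 0.048). Also among the 20 highest were GPRC5A (12.43, 12.54 and 12.51), an orphan receptor of epithelia, DCBLD2 (12.47 ± 0.085), a transmembrane receptor, RAB7A (12.46 ± 0.051), a regulator of late endosomes, the histone gene H2AC14 (12.35 ± 0.22) and the chemokine gene CXCL5 (12.34, 12.28 and 12.41). The other members were RPS21, RPL23, RPS6, RPLP1 and RPL35. Of the 100 highest protein-coding genes, 16 encoded ribosomal proteins. Near-identical copies make some of these values uncertain. Of the 100 highest named genes of any kind, 56 were protein-coding and 28 were pseudogenes, 11 were small nucleolar RNAs and 3 were miRNA precursors. The pseudogene MT2P1, a copy of MT2A, reached 13.05, and H2AC14 belongs to a family of histone genes with nearly the same sequence.

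The keratins and the adhesion molecule of bile duct epithelium were among the clearest lineage signals. KRT7 gave 11.70, 11.70 and 11.71 on replicates 1, 2 and 3 and stood at rank 49 of the protein-coding genes. KRT19 gave 11.57, 11.47 and 11.39, which is rank 61. EPCAM, an adhesion molecule of simple epithelia, gave 10.23, 10.21 and 10.30, and SOX9, a transcription factor of biliary progenitors and ducts, gave 9.17, 9.35 and 9.26. All 4 defining markers were in the top 10% on every array. The keratin partners KRT8 (9.19 ± 0.091) and KRT18 (8.28 ± 0.045) and the endoderm factors GATA6 (8.95 ± 0.095) and FOXA2 (7.86 ± 0.043) were also above the upper level, as were BICC1 (9.90 ± 0.045), an RNA-binding protein mutated in cystic disease, SLC4A2 (8.18 ± 0.069), an anion exchanger that moves bicarbonate, and ANXA4 (8.16 ± 0.073). Of 27 biliary markers measured, 20 (74.1%) were above the lower level, which is close to the 72.0% of all protein-coding genes. The list stood out at higher levels. Above the upper level were 14 (51.9%), and 8 (29.6%) were in the top 10%. The list median was 7.20, against 6.75 over all protein-coding genes.

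The other 7 biliary markers were below the lower level, among them genes of bile secretion and its control. CFTR, the chloride channel of bile secretion, gave 4.36, 4.54 and 4.55. SLC10A2, which takes up bile acids at the apical membrane, gave 4.52, 4.92 and 4.75, and the secretin receptor gene SCTR gave 5.57, 5.54 and 5.56. SPP1 (4.47 ± 0.041), which encodes osteopontin, ANXA13 (4.49 ± 0.092), CLDN10 (4.80 ± 0.056) and PKHD1 (5.63 ± 0.085) were the others. The water channel gene AQP1 (6.35 ± 0.042) and the surface marker PROM1 (6.42 ± 0.051) fell between both levels.

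**Figure D2:**
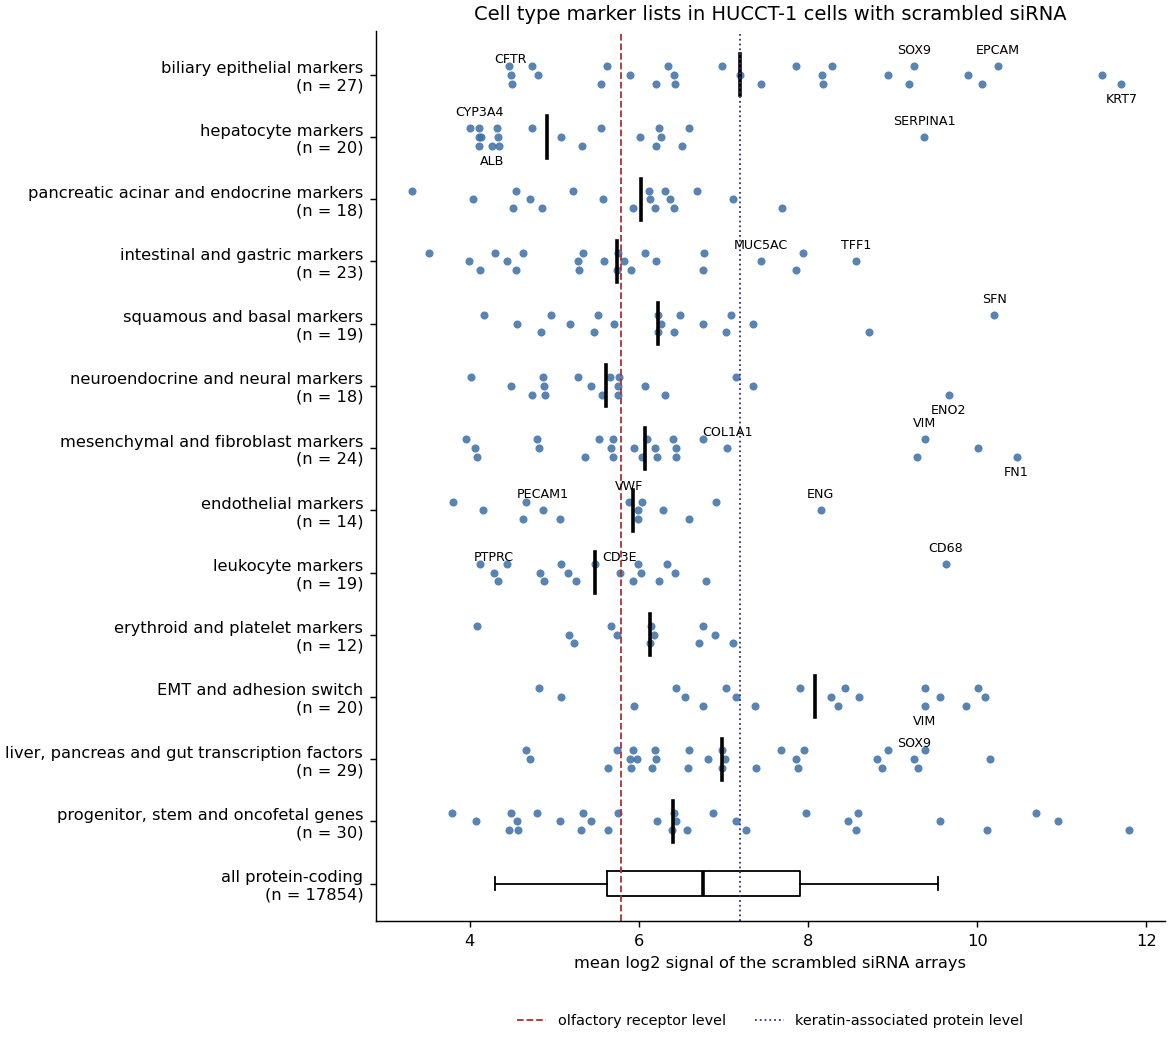
Mean log2 signal of the 3 scrambled siRNA arrays (x axis) for each gene (point) of the cell type and lineage lists (rows), with list medians as black bars, the lower (dashed) and upper (dotted) level and, in the last row, all protein-coding genes as a box of the quartiles with whiskers to the 5th and 95th percentile. The biliary list reached 11.70 with KRT7, whereas the hepatocyte list had a median of 4.91 and stayed below the upper level apart from SERPINA1 at 9.37.

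Genes of the hepatocyte list were low apart from SERPINA1. ALB, the albumin gene, gave 4.21, 4.28 and 4.29, CYP3A4, a drug-metabolising cytochrome, gave 4.14, 4.02 and 4.18, and TTR, the transthyretin gene, gave 5.62, 5.59 and 5.46. APOA1, the main protein of high-density lipoprotein, lay between both levels at 6.50 ± 0.19. SERPINA1, which encodes the protease inhibitor alpha-1-antitrypsin, gave 9.43, 9.32 and 9.38 and was the only member of 20 measured above the upper level. The list median of 4.91 compared with 6.75 over all protein-coding genes. The fibrinogen genes FGA (4.32 ± 0.020) and FGB (4.11 ± 0.088) were at background, the fibrinogen gene FGG was the lowest member, and CYP7A1, the rate-limiting enzyme of bile acid synthesis, had 4.11 ± 0.050.

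Gastric and intestinal genes gave a partial picture. TFF1, a trefoil peptide of gastric surface mucus, gave 8.60, 8.52 and 8.59. CEACAM6 (7.93 ± 0.038), an adhesion molecule of mucosal epithelia, AGR2 (7.86 ± 0.18), a disulfide isomerase of mucus-secreting cells, and MUC5AC (7.44 ± 0.14), the gel-forming gastric mucin, were also above the upper level. The other 19 of 23 measured genes were not. Only 17.4% of the list, against 39.8% of all protein-coding genes, was above the upper level. CDX2 (5.90 ± 0.057), MUC2 (6.20 ± 0.077) and VIL1 (5.34 ± 0.014), which define intestinal epithelium, did not pass it, and the lowest members were FABP2 (3.98) and AGR3 (3.52). Among 18 pancreatic markers, only INS (7.49, 7.69 and 7.89) was above the upper level, whereas PRSS1 (6.41 ± 0.18), CPA1 (6.13 ± 0.028) and GCG (4.51 ± 0.071) were not. The means of INS, AGR2 and MUC5AC lay below the highest keratin-associated protein gene, at 7.90, and therefore within the range of a family taken as silent. Of 19 squamous and basal markers, SFN (10.20 ± 0.040), a 14-3-3 protein of stratified epithelia, PERP (8.72 ± 0.12), a desmosomal protein, and S100A2 (7.35 ± 0.065) exceeded the upper level, and the basal keratins KRT5 (7.03 ± 0.071) and KRT14 (6.23 ± 0.26) lay between both levels. Of 18 neuroendocrine and neural markers, ENO2 (9.66 ± 0.024), a glycolytic enolase, and TUBB3 (7.35 ± 0.090) passed it, whereas INSM1 (7.15 ± 0.11), CHGA (6.30 ± 0.042) and SYP (5.75 ± 0.0076) did not. Above the upper level were 5.56% of pancreatic, 15.8% of squamous and 11.1% of neuroendocrine markers, against the same 39.8%.

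Mesenchymal markers were split between a few high genes and many between both levels or below the lower level. VIM, the intermediate filament of mesenchymal cells, gave 9.46, 9.37 and 9.31. FN1, which encodes fibronectin, gave 10.41, 10.42 and 10.56, SNAI2, a repressor of E-cadherin, gave 10.04, 10.12 and 9.86, and CDH2, which encodes N-cadherin, gave 9.27, 9.29 and 9.29. These 4 were the only members of 24 measured above the upper level, and all were in the top 10%. The share was thus 16.7% for both, against 39.8% and 10.0% of all protein-coding genes. Above the lower level were 14 (58.3%), against 72.0%. The fibroblast collagens COL1A1 (7.04 ± 0.13), COL1A2 (6.40 ± 0.059) and COL3A1 (6.04 ± 0.024) lay between both levels. PDGFRB (5.66 ± 0.047), LUM (4.79 ± 0.15), FAP (4.09 ± 0.065), DCN (4.06 ± 0.096) and POSTN (3.96 ± 0.085), which mark fibroblasts and their matrix, were below the lower level.

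Several epithelial regulators were high beside these genes, and others were not. CDH1, the E-cadherin gene, gave 9.53, 9.51 and 9.65, against 9.27, 9.29 and 9.29 for CDH2 on the same arrays, which says that both probe sets were bright and not how the amounts of the 2 RNAs compare. EHF (9.87 ± 0.084) and KLF5 (9.39 ± 0.083), transcription factors of epithelia, GRHL2 (8.60 ± 0.030), which maintains epithelial junction genes, and the splicing factors ESRP1 (8.36 ± 0.11) and ESRP2 (8.27 ± 0.064) were above the upper level, as was ST14 (10.09 ± 0.13), an epithelial surface protease. Other epithelial regulators were lower. OVOL2 (7.37 ± 0.035) was just above the upper level. OVOL1 (7.14 ± 0.10), the non-coding RNA MIR200CHG (7.03 ± 0.077) and GRHL1 (6.55 ± 0.018) lay between both levels, and ELF5 (5.08 ± 0.18) below the lower level. The repressors ZEB1 (6.76 ± 0.13), TWIST1 (6.44 ± 0.088) and SNAI1 (5.94 ± 0.054) fell between both levels, and ZEB2 (4.82 ± 0.072) was below the lower level. Of 20 genes in the list of epithelial-mesenchymal transition, 12 (60.0%) were above the upper level, against 39.8% of all protein-coding genes. The list pools epithelial and mesenchymal genes and holds the non-coding RNA MIR200CHG, so this share does not describe a transition.

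Markers of cells that a tumour would hold but a culture of 1 line should not were mostly low. PTPRC, the pan-leukocyte gene, gave 4.35, 4.23 and 4.28. CD3E (5.78 ± 0.060), a T cell receptor subunit, lay just below the lower level, and CD14 (5.98 ± 0.035), a monocyte marker, slightly above it. Of 19 leukocyte markers, CD68 (9.63 ± 0.045), a lysosomal protein that also occurs outside macrophages, was the only gene above the upper level. Endothelial PECAM1 (4.86 ± 0.016) was below the lower level, and CDH5 (5.98 ± 0.036) and VWF (5.88 ± 0.070) lay slightly above it. Among 14 endothelial markers only ENG (8.15 ± 0.060), a co-receptor for TGF-beta, exceeded the upper level. None of 12 erythroid and platelet markers did, with HBA2 (7.11 ± 0.10) the highest and HBB (5.23 ± 0.14) and PF4 (5.18 ± 0.056) below the lower level. As a share of each list, 42.1% of leukocyte and 57.1% of endothelial markers were above the lower level, against 72.0% of all protein-coding genes, so the lower level alone does not separate these lists from genes that the cells use.

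The transcription factor list was led by KLF6 (10.15 ± 0.029), an injury-response factor, KLF5, TEAD1 and SOX9, and its median of 6.98 was near that of all protein-coding genes. SOX4 (8.87 ± 0.14), ID1 (8.81 ± 0.066) and HES1 (7.88 ± 0.071), a target of Notch, were above the upper level. PROX1 (4.66 ± 0.079), which marks hepatoblasts, and PTF1A (4.71 ± 0.071), which marks acinar pancreas, were below the lower level. Among progenitor and oncofetal genes, CD44, the hyaluronan receptor, gave 11.76, 11.83 and 11.78 and ALDH1A3, a retinal dehydrogenase, gave 10.94, 10.88 and 11.03. The surface proteins CD9 (10.70 ± 0.092) and ALCAM (10.12 ± 0.028) were also in the top 10%. The fetal RNA-binding protein gene IGF2BP2 (8.47 ± 0.064) and HMGA2 (8.59 ± 0.060) were above the upper level, whereas AFP, the fetal albumin (3.80, 3.75 and 3.82), LGR5 (4.55, 4.47 and 4.43), a stem cell receptor of the gut, and NANOG (4.07 ± 0.13) were below the lower level. Of 30 genes in this list, 17 (56.7%) passed the lower level, against 72.0% of all protein-coding genes.

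Several tight junction genes were in the top 10%, although most of the list was not above the upper level. Tight junctions seal the space between epithelial cells through claudins and occludin, which are tied to actin by ZO proteins. CLDN1 gave 11.13, 11.07 and 11.14, TJP1, which encodes ZO-1, gave 10.44, 10.43 and 10.41, and OCLN, the occludin gene, gave 10.36, 10.41 and 10.44. CLDN4 (10.06 ± 0.046), CLDN12 (10.05 ± 0.090) and CLDN7 (9.26 ± 0.12) were the other claudins in the top 10%. CLDN3 (6.82 ± 0.046) and CLDN23 (6.97 ± 0.044) lay between both levels and CLDN2 (5.83 ± 0.14), a pore-forming claudin, just above the lower level. The tricellular protein gene MARVELD2 (8.62 ± 0.077) and the linker gene CGN (8.15 ± 0.086) were above the upper level. Of 32 genes measured, 9 (28.1%) were above the upper level, against 39.8% of all protein-coding genes, and 20 (62.5%) above the lower level, against 72.0%. The list median of 6.34 compared with 6.75 over all protein-coding genes. The claudin family was represented by a few members, and the lowest were CLDN8 (3.82) and CLDN22 (3.79).

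Adherens junctions and desmosomes were covered more fully. Adherens junctions join cadherins to actin through catenins. VCL, the vinculin gene, gave 10.60, 10.52 and 10.58, CTNNB1, which encodes beta-catenin, gave 9.94, 9.83 and 9.93, and JUP, which encodes plakoglobin, gave 9.56, 9.63 and 9.77. CDH6, a cadherin of developing kidney, gave 9.97, 9.95 and 10.06 and stood beside CDH1 and CDH2 among the cadherins in the top 10%. Of 18 adherens genes, 12 (66.7%) were above the upper level and 8 (44.4%) in the top 10%, against 39.8% and 10.0% of all protein-coding genes. The list median was 8.68. Desmosomes anchor keratin filaments. PKP2 gave 10.69, 10.67 and 10.79 and DSP, the desmoplakin gene, gave 9.99, 9.99 and 9.93. The cadherin of simple epithelia DSG2 (9.75 ± 0.038) was bright, whereas the desmosomal cadherins of stratified epithelia DSG1 (3.97 ± 0.052), DSC1 (4.26 ± 0.045) and DSC3 (4.16 ± 0.095) were below the lower level and DSG3 (7.09 ± 0.053) lay between both levels. The hemidesmosome genes ITGA6 (9.56 ± 0.013), ITGB4 (8.94 ± 0.051), PLEC (8.81 ± 0.081) and CD151 (9.96 ± 0.061) were all above the upper level. In this list 11 of 17 genes (64.7%) were above the upper level, against 39.8% of all protein-coding genes. Of 10 gap junction genes, which encode channels between neighbouring cells, only GJB2 (7.50 ± 0.039) was above the upper level, and GJA1 (5.60 ± 0.056), the most widely used connexin gene, was below the lower level.

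**Figure D3:**
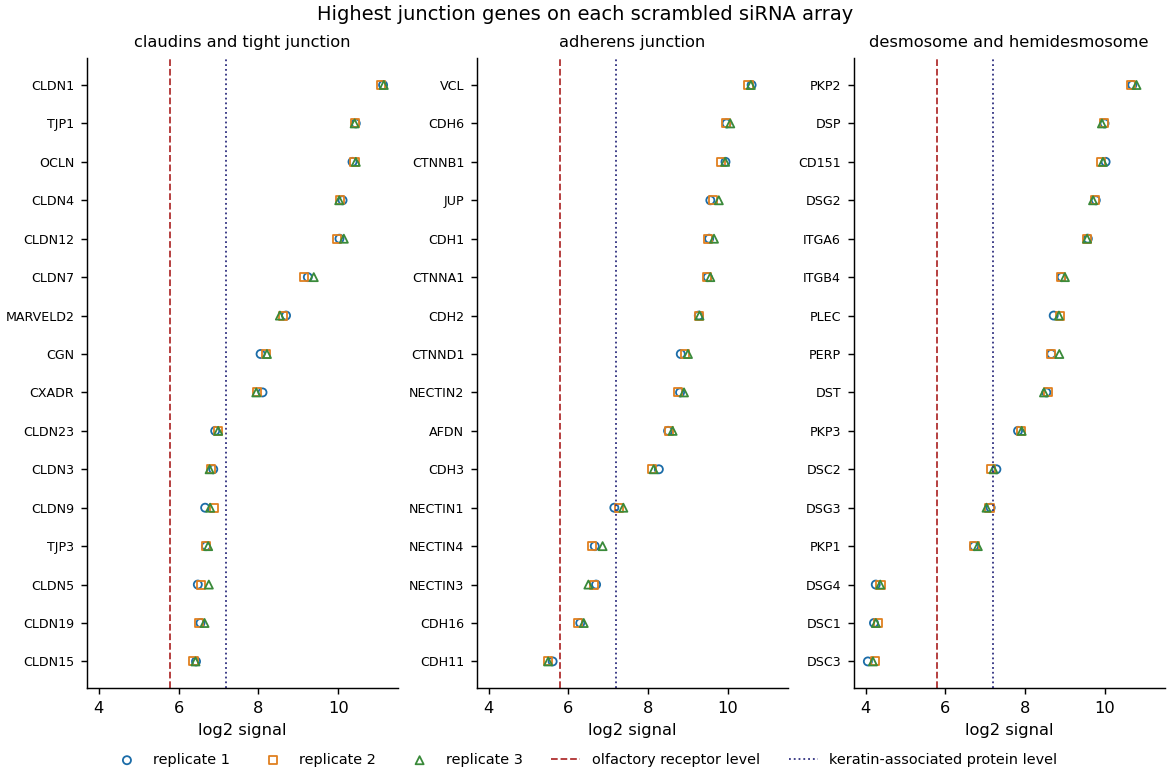
Log2 signal (x axis) of the 16 highest genes of 3 junction lists on each scrambled siRNA array (symbols for replicates 1 to 3), with the lower (dashed) and upper (dotted) level. Symbols of a gene nearly coincided, and the desmosome list broke off between PKP1 at 6.76 and DSG4 at 4.33.

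The Hippo pathway is a kinase cascade that restrains the co-activators YAP and TAZ, which bind TEAD transcription factors. YAP1 gave 9.15, 9.06 and 9.08 and WWTR1, which encodes TAZ, gave 8.41, 8.30 and 8.38 on replicates 1, 2 and 3. Of the TEAD genes, TEAD1 (9.30 ± 0.044) and TEAD4 (8.30 ± 0.013) were above the upper level, TEAD3 (7.13 ± 0.032) lay between both levels and TEAD2 (5.76 ± 0.038) was below the lower level. The target genes ANKRD1, a nuclear ankyrin repeat protein (11.72, 11.62 and 11.41), and CCN1, a secreted matrix protein (11.35, 11.39 and 11.46), were the brightest of this list. CCN2, another classical target, gave 7.88, 7.84 and 7.84. The list also held FOXM1 (9.90 ± 0.034), AXL (9.69 ± 0.098) and VGLL1 (9.53 ± 0.059). In it, 12 of 15 genes (80.0%) were above the upper level, against 39.8% of all protein-coding genes. Of 27 upstream genes, 26 (96.3%) were above the lower level and 22 (81.5%) above the upper level, against 72.0% and 39.8% of all protein-coding genes. MOB1A (10.20 ± 0.034), an activator of LATS kinases, WWC1 (9.88 ± 0.096), DLG1 (9.63 ± 0.034) and AMOTL1 (9.39 ± 0.049) were the highest. The kinase genes STK4 (8.54 ± 0.029), LATS1 (7.74 ± 0.091) and LATS2 (7.77 ± 0.051) and NF2 (8.87 ± 0.042), which encodes merlin, were above the upper level. STK3 (6.55 ± 0.17) lay between both levels, and AMOT (5.06 ± 0.046) was the only member below the lower level.

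Among receptor tyrosine kinases, which receive growth factor signals at the cell surface, MET and EGFR stood out. MET, the receptor for hepatocyte growth factor, gave 10.74, 10.75 and 10.78. EGFR gave 10.55, 10.59 and 10.68. EPHA2 (9.72 ± 0.050), an ephrin receptor, AXL, the receptor for GAS6, RYK (9.54 ± 0.017) and ROR1 (8.93 ± 0.043), both Wnt co-receptors, were also in the top 10%. ERBB2 (7.42 ± 0.079) and ERBB3 (7.22 ± 0.087) lay just above the upper level, FGFR2 (5.96 ± 0.035) was near the lower level, and ERBB4 (4.94 ± 0.042), KIT (4.55 ± 0.091) and ROS1 (4.11 ± 0.044) were below it. Of 46 measured, 15 (32.6%) exceeded the upper level, against 39.8% of all protein-coding genes, so the class as a whole did not lie above the rest.

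Integrins, which hold cells to the matrix, were led by ITGB1 (11.33, 11.33 and 11.33), the common beta subunit, and its alpha partners ITGA2 (11.20, 11.21 and 11.23), a collagen receptor, and ITGA3 (10.17 ± 0.064), a laminin receptor. The leukocyte integrin genes ITGAL (5.67 ± 0.049) and ITGAM (5.48 ± 0.045) and the alpha 4 gene ITGA4 (4.19 ± 0.041) were below the lower level.

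Of 37 cytokine and interferon receptor genes, 31 (83.8%) were above the lower level and 19 (51.4%) above the upper level, against 72.0% and 39.8% of all protein-coding genes. TNFRSF21, a death domain receptor, gave 11.01, 10.90 and 11.10, and IL6ST, the shared signalling chain gp130, gave 10.95, 10.96 and 10.91. TNFRSF12A (10.70 ± 0.066), the receptor for TWEAK, and OSMR (9.61 ± 0.030), the oncostatin M receptor, followed. IL6R (6.67 ± 0.034), the chain that binds interleukin 6, lay between both levels. The interferon receptor gene IFNAR1 gave 8.57 ± 0.088 and the chemokine receptor gene CXCR4 9.06 ± 0.091. IL13RA2 (3.72 ± 0.087) was the lowest.

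The TGF-beta receptor gene TGFBR2 (10.19, 10.17 and 10.27) was in the top 10% and TGFBR1 (7.88 ± 0.089) above the upper level. NOTCH2 (9.38, 9.38 and 9.55) was the only gene of 23 Notch, Wnt and Hedgehog receptors in the top 10%, whereas NOTCH1 (6.96 ± 0.012) and NOTCH3 (6.57 ± 0.057) lay between both levels. LRP5 (8.11 ± 0.053), LRP6 (8.27 ± 0.038) and LGR4 (7.92 ± 0.083), receptors of Wnt signalling, were above the upper level. Only 6 of the 23 (26.1%) were, against 39.8% of all protein-coding genes. Beside GPRC5A, the G protein-coupled receptors included OXTR (9.53, 9.41 and 9.50), the oxytocin receptor gene, ADGRF1 (8.82 ± 0.14) and LPAR1 (8.53 ± 0.088), a lysophosphatidic acid receptor. The bile acid receptor gene GPBAR1 (6.15 ± 0.12) lay between both levels and SSTR2 (4.86 ± 0.067) was the lowest. Nuclear receptors were led by PPARD (9.69, 9.70 and 9.77), a fatty acid sensor, and NR3C1 (8.43 ± 0.0089), the glucocorticoid receptor gene. VDR (7.72 ± 0.10), the vitamin D receptor gene, was above the upper level, ESR1 (5.81 ± 0.059) lay just above the lower level and PGR (4.10 ± 0.049) below it.

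Most chemokine genes were not above the upper level, and 6 of the 8 that were belong to the ELR+ class, which attracts neutrophils through CXCR1 and CXCR2. CXCL5 gave 12.34, 12.28 and 12.41, CXCL1 gave 9.72, 9.72 and 9.73, CXCL8 gave 9.18, 9.20 and 9.13 and CXCL2 gave 8.56, 8.82 and 8.62. CXCL3 (7.61 ± 0.11) and CXCL6 (7.43 ± 0.052) were above the upper level. The other 2 attract lymphocytes among other cells. CCL20, the ligand of CCR6 and the second highest of the list, gave 10.32, 10.42 and 10.39 and CXCL16 gave 8.24 ± 0.079. The interferon-inducible T cell attractants CXCL9 (3.96, 4.10 and 4.16), CXCL10 (4.75, 4.53 and 4.68) and CXCL11 (4.28, 4.39 and 4.53) were below the lower level on every array, as were CXCL12 (4.76 ± 0.076) and CXCL13 (4.23 ± 0.19). CCL2 (6.68 ± 0.11), a monocyte attractant, lay between both levels. Only 18 of 31 chemokine genes (58.1%) were above the lower level and 8 (25.8%) above the upper level, against 72.0% and 39.8% of all protein-coding genes.

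The promoters of these genes are shown because 5 ELR+ members share a run of letters. In the 250 bases before the RefSeq start (GRCh38.p14), a motif that NF-kB can bind, GGGA, any base and then TTTCC, was searched on both strands. It occurred in 75 of 14517 protein-coding windows (0.517%) and in 5 of 22 chemokine windows, those of CXCL1, CXCL2, CXCL3, CXCL5 and CXCL6, between 78 and 91 bases before the start. The windows of CXCL8, CCL20 and CXCL9 did not hold these letters. The motif was chosen after the signals were seen, and a match is a description of the letters only. The 120 bases before the start are given below for CXCL5 (chr4:73998678-73998797, minus strand), CXCL1 (chr4:73869273-73869392, plus strand), CXCL2 (chr4:74099196-74099315, minus strand), CXCL6 (chr4:73836558-73836677, plus strand) and, as a gene at background, CXCL9 (chr4:76007510-76007629, minus strand). Capitals mark the motif.
CXCL5: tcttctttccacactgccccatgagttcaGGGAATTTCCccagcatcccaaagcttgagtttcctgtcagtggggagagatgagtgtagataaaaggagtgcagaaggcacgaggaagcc
CXCL1: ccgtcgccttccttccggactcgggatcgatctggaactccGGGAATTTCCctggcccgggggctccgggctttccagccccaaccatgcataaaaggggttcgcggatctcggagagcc
CXCL2: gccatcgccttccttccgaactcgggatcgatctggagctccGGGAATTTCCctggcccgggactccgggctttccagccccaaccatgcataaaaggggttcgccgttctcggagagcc
CXCL6: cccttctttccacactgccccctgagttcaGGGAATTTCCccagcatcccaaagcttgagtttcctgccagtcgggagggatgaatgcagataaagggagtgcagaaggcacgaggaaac
CXCL9: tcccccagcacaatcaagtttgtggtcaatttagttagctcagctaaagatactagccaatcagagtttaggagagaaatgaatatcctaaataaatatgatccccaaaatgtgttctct
The genes are tandem copies, and their promoters are not independent examples. CXCL5 and CXCL6 were identical at 92.4% of 119 positions after a shift by 1 base, and CXCL1 and CXCL2 at 67.5% of 120 positions without a shift. No gaps were allowed. The motif lay 79 bases before the start in CXCL1 and 78 in CXCL2, whereas the last bases before the start lined up without a shift. The value of 67.5% therefore understates how alike CXCL1 and CXCL2 are, and it cannot be compared with 92.4%.

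Interleukin genes included several of the IL-1 family, which activate NF-kB through their receptors. IL1B gave 9.88, 9.90 and 9.89, IL18 gave 9.95, 9.91 and 9.81 and IL1A gave 8.99, 9.05 and 8.91, and the antagonist gene IL1RN gave 7.99 ± 0.045. MIF (9.86 ± 0.046), a macrophage migration inhibitory factor, and IL32 (9.37 ± 0.066) were in the top 10%. LIF (8.25, 8.29 and 8.32), a ligand that signals through gp130, was above the upper level. IL6 (7.26, 7.21 and 7.13) straddled the upper level, and TNF (7.37, 7.33 and 7.07) did too. IL2 (3.44 ± 0.033), IL4 (4.19 ± 0.15) and IFNB1 (4.40 ± 0.11) were at background. IL33 (4.35) and IL36G (5.23), also of the IL-1 family, were below the lower level. Of 37 interleukin and cytokine genes, 19 (51.4%) were above the lower level, against 72.0% of all protein-coding genes. Above the upper level were 12 (32.4%), against 39.8%.

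Of 49 growth factor genes, 39 (79.6%) were above the lower level and 25 (51.0%) above the upper level, against 72.0% and 39.8% of all protein-coding genes. The ligands of EGFR included EREG (10.78, 10.72 and 10.77), TGFA (9.79, 9.74 and 9.85) and HBEGF (9.56, 9.62 and 9.55), whereas BTC (6.22 ± 0.082) lay between both levels and EGF (4.77 ± 0.020) and EPGN (3.85 ± 0.030) were below the lower level. BMP4 gave 10.50, 10.37 and 10.53. The Notch ligand gene JAG1 (9.57 ± 0.083) and TGFB2 (9.48 ± 0.030) were in the top 10%, and TGFB1 (7.90 ± 0.097) was above the upper level. GAS6 (9.02 ± 0.051), the ligand of AXL, was in the top 10%, as its receptor was. HGF (4.27 ± 0.063), the ligand of MET, was below the lower level. VEGFA (8.70 ± 0.052), VEGFC (8.37 ± 0.049) and PDGFA (8.50 ± 0.021), which act on vessels and stroma, were above the upper level.

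**Figure D4:**
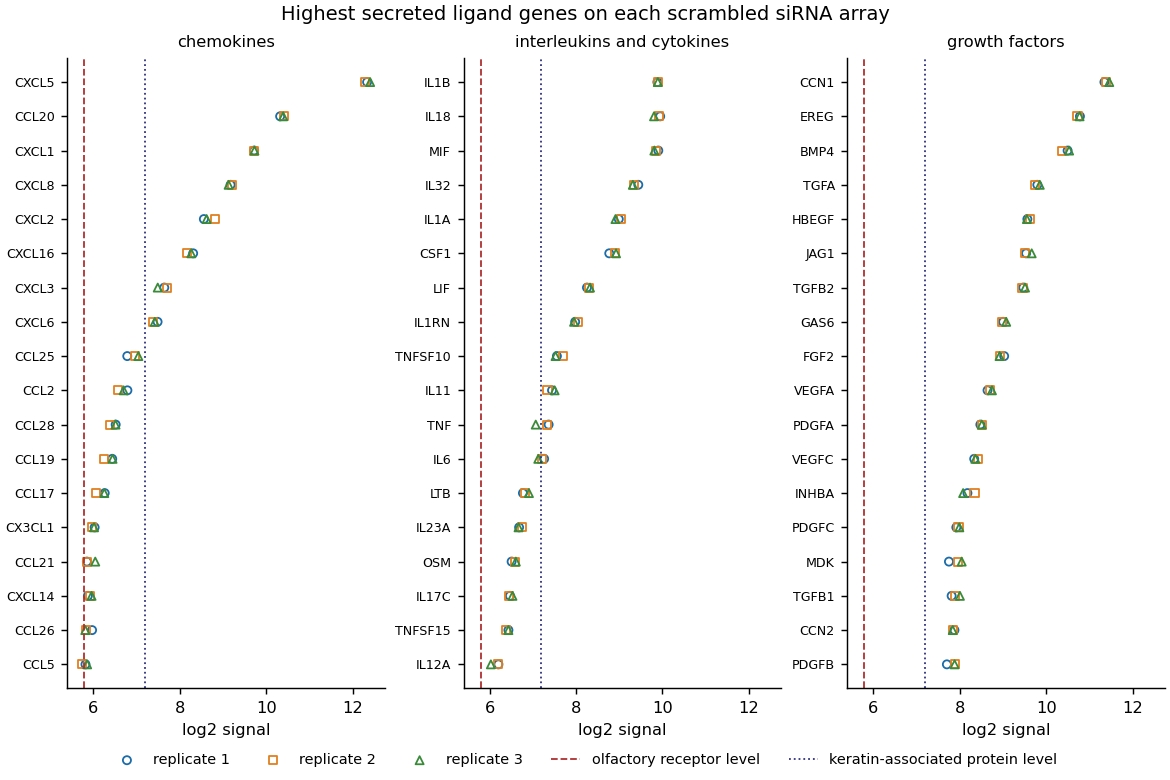
Log2 signal (x axis) of the 18 highest genes of the chemokine, interleukin and growth factor lists on each scrambled siRNA array (symbols for replicates 1 to 3), with the lower (dashed) and upper (dotted) level. CXCL5 at 12.34 stood apart from the next chemokine CCL20 at 10.38, and chemokines fell under the upper level after 8 genes.

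Matrix genes were led by THBS1, TGFBI (11.43, 11.37 and 11.41), a matrix protein induced by TGF-beta, LAMB3 (10.95, 11.01 and 11.05), a chain of an epithelial laminin, and FN1. COL6A1 (9.66 ± 0.046) and COL6A2 (9.14 ± 0.017) were the only collagens of the list in the top 10%. Proteases and their inhibitors formed one of the fullest secreted lists, with 24 of 38 (63.2%) above the upper level and 14 (36.8%) in the top 10%. Over all protein-coding genes these shares were 39.8% and 10.0%. PLAU, the urokinase gene, gave 11.08, 11.08 and 11.16, ADAM9, a sheddase, gave 11.11, 11.04 and 11.12, and MMP7, a matrix protease of glandular epithelia, gave 10.36, 10.21 and 10.45. Its inhibitor TIMP1 gave 9.99 ± 0.058, the urokinase receptor gene PLAUR gave 9.07 ± 0.028 and MMP1 gave 7.63 ± 0.089, whereas MMP2 (5.72 ± 0.032), MMP13 (4.54 ± 0.14) and MMP12 (4.21 ± 0.11) were below the lower level.

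F3, which encodes tissue factor, the starter of coagulation, gave 12.02, 12.07 and 11.97 and stood at rank 29 of the protein-coding genes. C3, the central complement protein, gave 10.37, 10.35 and 10.43, and the complement inhibitor genes CD59 (10.59 ± 0.097) and CD46 (9.30 ± 0.11) were in the top 10%. Of 23 complement and coagulation genes, 14 (60.9%) were above the lower level, against 72.0% of all protein-coding genes. Above the upper level were 9 (39.1%), against 39.8%, and 4 (17.4%) were in the top 10%, against 10.0%. C5 (4.86 ± 0.031) and F5 (4.28 ± 0.088) were among those below the lower level. Mucins and epithelial secretions had no gene in the top 10%. LCN2 (8.95, 8.81 and 8.72), a siderophore-binding protein, was the highest, MUC16 (8.03 ± 0.15) was the highest mucin, and MUC1 (6.56 ± 0.082) and MUC5B (6.51 ± 0.070) lay between both levels.

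Cell cycle lists were among the fullest. Cells enter the cycle through cyclin D with CDK4 or CDK6, which inactivate RB1 and free E2F factors. CCND1, the cyclin D1 gene, gave 11.69, 11.73 and 11.75 and ranked 46 of the protein-coding genes. CDK6 (10.20 ± 0.042), CDK4 (9.95 ± 0.072), MYC (10.19 ± 0.066), SKP2 (10.00 ± 0.050), CCNA2 (9.90 ± 0.043) and CDK2 (9.70 ± 0.015) were in the top 10%. CCNE1 (7.49 ± 0.038) and E2F1 (8.23 ± 0.023) were above the upper level, whereas CCND2 (5.99 ± 0.17) lay near the lower level and CCNA1 (5.57 ± 0.068), a germ cell cyclin, below it. In this list 19 of 25 genes (76.0%) were above the upper level, against 39.8% of all protein-coding genes.

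Of 38 DNA replication genes, all were above the lower level and 37 (97.4%) above the upper level, against 72.0% and 39.8% of all protein-coding genes. PCNA, the sliding clamp, gave 10.79, 10.77 and 10.74, and RRM2, a subunit of ribonucleotide reductase, gave 10.61, 10.54 and 10.56. The helicase genes MCM2 (9.06 ± 0.016), MCM3 (9.72 ± 0.048), MCM4 (9.60 ± 0.0051), MCM5 (9.71 ± 0.022), MCM6 (9.54 ± 0.037) and MCM7 (9.52 ± 0.048) were all in the top 10%. RPA3 (6.02 ± 0.098) was the only member between both levels.

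Of 42 mitosis genes, all were above the lower level, 41 (97.6%) above the upper level and 19 (45.2%) in the top 10%. Over all protein-coding genes these shares were 72.0%, 39.8% and 10.0%. The list median was 8.76, against 6.75 over all protein-coding genes. ANLN, a scaffold of the cleavage furrow, gave 11.20, 11.15 and 11.18. MKI67, which encodes Ki-67, gave 10.74, 10.74 and 10.80, CDC20, which starts anaphase through a ubiquitin ligase, gave 10.54, 10.32 and 10.41, and CCNB1 gave 10.22, 10.09 and 10.07. TPX2 (10.35 ± 0.034), a spindle protein, and TOP2A (10.14 ± 0.062), a topoisomerase, were also in the top 10%, and CDC25C (6.68 ± 0.11) was the only member between both levels. In these bulk samples the number of dividing cells and the amount of RNA per dividing cell cannot be told apart. Checkpoint genes were led by H2AX (10.57 ± 0.070), FANCI (8.96 ± 0.022) and TOPBP1 (8.93 ± 0.0077), with CHEK1 at 8.47 ± 0.044 and CHEK2 at 5.35 ± 0.17, the only member of 14 below the lower level.

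The inhibitor and p53 response list had a median of 7.53 and the quiescence list 7.26, against 6.75 over all protein-coding genes. CDKN2A (7.76, 7.77 and 7.86), which encodes p16 and ARF, and CDKN1A (7.53, 7.53 and 7.43), which encodes p21, were above the upper level, as were CDKN2B (8.59 ± 0.055) and GADD45A (9.24 ± 0.079), the highest of the list. The values of CDKN2A and CDKN1A lay below the highest keratin-associated protein gene, at 7.90, and therefore within the range of a family taken as silent. CDKN1C (6.58 ± 0.018), which encodes p57, lay between both levels. SESN1 (5.64 ± 0.12) and TP53INP1 (5.34 ± 0.13) were below the lower level. Only 2 of 18 inhibitor and p53 response genes were in the top 10%, which is 11.1% and close to the 10.0% of all protein-coding genes. All 15 quiescence genes were above the lower level and 9 (60.0%) above the upper level, against 72.0% and 39.8% of all protein-coding genes. The highest were SMAD3 (10.14 ± 0.061) and DYRK1A (8.69 ± 0.014), a kinase that assembles the DREAM repressor.

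**Figure D5:**
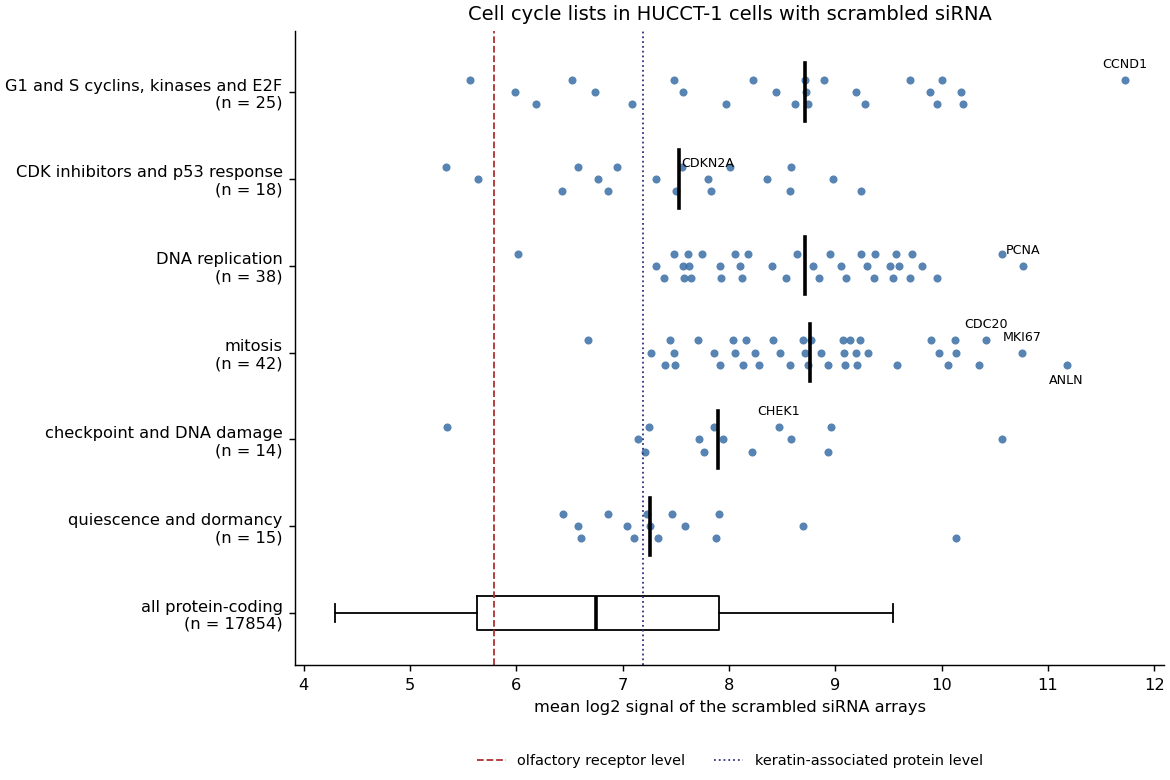
Mean log2 signal of the 3 scrambled siRNA arrays (x axis) for each gene (point) of the cell cycle lists (rows), with list medians as black bars, the lower (dashed) and upper (dotted) level and, in the last row, all protein-coding genes as a box of the quartiles with whiskers to the 5th and 95th percentile. All but 1 of 38 DNA replication genes and all but 1 of 42 mitosis genes lay above the upper level.

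The promoters of the mitosis genes are shown because the 2 bright lists differ in a motif. The letters TTTGAA, known as the cell cycle gene homology region, occurred on either strand in 18 of 35 mitosis windows (51.4%), 1 of 33 DNA replication windows (3.03%) and 10.4% of all 14517 windows. Together with CCAAT, the letters bound by NF-Y, they occurred in 16 mitosis windows (45.7%) and 1 DNA replication window (3.03%), against 4.11% of all windows. CCAAT, counted with or without TTTGAA, occurred in 74.3% of mitosis, 60.6% of DNA replication and 34.5% of all windows. It thus separated the 2 lists less than TTTGAA. These motifs too were chosen with the signals known, from knowledge of mitotic promoters, and windows of 250 bases were searched for both. The 120 bases before the start are given for CDC20 (chr1:43358861-43358980, plus strand), PLK1 (chr16:23678769-23678888, plus strand), KIF11 (chr10:92593010-92593129, plus strand) and CCNB2 (chr15:59105026-59105145, plus strand), with both motifs, read on either strand, in capitals.
CDC20: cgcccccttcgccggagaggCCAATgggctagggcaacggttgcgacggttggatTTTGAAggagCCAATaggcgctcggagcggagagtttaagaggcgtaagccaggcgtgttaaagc
PLK1: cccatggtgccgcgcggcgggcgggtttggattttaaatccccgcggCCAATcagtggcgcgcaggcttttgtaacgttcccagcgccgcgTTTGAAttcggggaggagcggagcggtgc
KIF11: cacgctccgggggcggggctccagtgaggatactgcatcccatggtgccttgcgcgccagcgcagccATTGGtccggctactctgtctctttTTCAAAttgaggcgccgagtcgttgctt
CCNB2: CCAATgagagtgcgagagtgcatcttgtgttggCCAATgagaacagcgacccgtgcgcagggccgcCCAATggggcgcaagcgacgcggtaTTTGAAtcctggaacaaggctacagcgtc
The printed genes were taken from the 16 of 35 mitosis windows that hold both motifs, so they do not stand for the whole list. TTTGAA was absent from the windows of CCNB1, AURKB and BUB1, among others. CDC20 had a mean of 10.42, PLK1, a mitotic kinase, 9.24, KIF11, a spindle motor, 8.69, and CCNB2, a cyclin, 7.40.

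Interferon response genes were mostly above both levels. IFI27 gave 11.38, 11.46 and 11.64 and IFI6 gave 11.11, 11.30 and 11.26, both small membrane proteins induced by type I interferon. IFITM1 (9.88 ± 0.14), OAS3 (9.20 ± 0.18) and MX1 (8.97 ± 0.22) were also in the top 10%. In all, 22 of 23 genes were above the lower level and 19 (82.6%) above the upper level, against 72.0% and 39.8% of all protein-coding genes. RSAD2 (5.69 ± 0.026) was below the lower level and IFIT1 (6.25 ± 0.15) between both levels. Whether siRNA transfection itself moved these genes was not tested, since all arrays hold transfected cells.

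This list also varied most between the arrays. Its median SD of 0.139 was the highest of the 44 lists, against 0.0777 over all genes above the lower level. Of the 22 genes above the lower level, 15 (68.2%) were lowest on replicate 1 and 15 were highest on replicate 2, whereas over all 12860 protein-coding genes above that level 31.8% were lowest on replicate 1 and 21.0% highest on replicate 2. IFI44L gave 8.13, 8.85 and 8.60, the widest spread of the list. The list deviated from its own mean by -0.112 on replicate 1, 0.101 on replicate 2 and 0.0109 on replicate 3. Other lists leaned to other arrays. Of 42 mitosis genes, 32 (76.2%) were highest on replicate 1, against 41.7% of all, with a deviation of 0.0622 there. Of 29 receptor tyrosine kinase genes above the lower level, 24 (82.8%) were highest on replicate 3, against 37.3% of all, as were 17 of 23 antigen presentation genes (73.9%) and 11 of 15 adherens junction genes (73.3%). Over all measured members, these lists deviated there by only 0.035, 0.0353 and 0.0414 in that order. The housekeeping list deviated by at most 0.0261 on any array. These shifts are differences between replicates, and their cause was not tested.

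Of the class I genes for antigen presentation, HLA-C (9.27 ± 0.10), HLA-B (8.92 ± 0.018), HLA-E (8.86 ± 0.036) and B2M (8.65 ± 0.093) were above the upper level, whereas HLA-F (7.17 ± 0.048) and HLA-G (6.81 ± 0.10) lay between both levels. Of the class II genes, HLA-DRA (5.09 ± 0.14), HLA-DRB1 (5.47 ± 0.048) and HLA-DQA1 (5.24 ± 0.12) were below the lower level, HLA-DPA1 (6.20 ± 0.040) and the activator gene CIITA (6.19 ± 0.084) lay between both levels, and CD74 (8.41 ± 0.077), which encodes the invariant chain, was above the upper level. CD47 (9.78, 9.71 and 9.84), which inhibits phagocytosis, PVR (9.70 ± 0.051), a ligand of TIGIT, and CD274 (9.51, 9.51 and 9.44), which encodes PD-L1, were in the top 10%. The co-stimulatory genes CD80 (4.43 ± 0.027) and CD86 (3.94 ± 0.12) were at background. HLA genes share long stretches of sequence, so their single values are uncertain.

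Among transport genes, carriers of nutrients were bright and exporters of bile components dim. SLC2A1, the glucose transporter GLUT1, gave 11.22, 11.20 and 11.36, and the sodium pump subunit gene ATP1B1 gave 10.39, 10.48 and 10.57. The amino acid transporters SLC3A2 (9.80 ± 0.044) and SLC7A5 (9.36 ± 0.14) were in the top 10%. ANO1 (8.70 ± 0.033), a chloride channel, and SLC12A2 (8.46 ± 0.095), which loads chloride into secreting cells, were above the upper level. SLCO1B3, an uptake carrier of hepatocytes, gave 9.60, 9.63 and 9.54, while its relative SLCO1B1 (6.79 ± 0.082) lay between both levels. The bile salt and phospholipid exporters ABCB11 (4.58 ± 0.025) and ABCB4 (4.57 ± 0.042) and the drug exporter ABCB1 (4.36 ± 0.059) were below the lower level, whereas ABCC3 (7.47 ± 0.094), a basolateral exporter, was above the upper level.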

How the data were processed

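Single-colour Clariom D human arrays were hybridised with total RNA from HUCCT-1 cells. The authors annotated the probes with a custom chip definition that gives 1 probe set per gene, and background-corrected and normalised the intensities by robust multi-array averaging (RMA, per the labels), so the deposited values are log2 signals. They ranged between 1.68 and 13.56 on the scrambled siRNA arrays, and the array medians were 5.81 on each. Replicate 1 held 29641 distinct values and replicates 2 and 3 held 7528 each, so their last digits are coarser.

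Of 39334 probe sets, 37201 carry 1 gene symbol, and 37154 of these were matched to a RefSeq gene table through the Entrez identifier. The other 2133 were not used. Means and SDs over the 3 arrays were computed in Python 3.11.15 with pandas 2.3.3 and numpy 2.4.6, and figures were drawn with matplotlib 3.10.9. The lower and upper levels are the 95th percentiles of the means of olfactory receptor and keratin-associated protein genes. No groups were compared and no test was run. The number of arrays limits the precision. Simulated data served only to check the code. Their silent genes were drawn from the same distribution as the family that set the level, so the share of them called was fixed beforehand. The simulation cannot show how the level treats other silent families, such as the keratin-associated protein genes.

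The 44 lists hold 1090 genes, of which 1028 were measured, and 776 of these were above the lower level. The other 62 were not analysed here. Lists, levels and members were chosen with earlier results of these data known. By rule, candidates for naming were YAP1 and WWTR1, the 20 highest protein-coding genes, the defining, 4 highest and 2 lowest members of each list and the 10 genes with the largest SD. Candidates not named stand within the counts and ranges. Further members are named to complete families and were chosen after their values were seen. Promoter sequences came from RefSeq (GRCh38.p14), with a window for 14517 of 17854 protein-coding genes.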

Additional observations from a re-analysis of the deposited data

How the results depend on the processing

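The counts rest on the level chosen for background. With keratin-associated protein genes in place of olfactory receptor genes, genes above the level numbered 9046 in place of 18927, and protein-coding genes 7108 in place of 12860. The same change moved the counts of 28 of 44 lists by more than 1.5 times. Counts became 1 for the hepatocyte, pancreatic, endothelial, leukocyte and gap junction lists, 0 for erythroid and platelet markers, 2 for neuroendocrine, 3 for squamous and 4 for intestinal and mesenchymal markers. They became 9 for tight junctions, 11 for integrins, 15 for receptor tyrosine kinases, 19 for cytokine receptors, 5 for TGF-beta receptors, 6 for Notch, Wnt and Hedgehog receptors, 8 for G protein-coupled receptors and 12 for nuclear receptors. They became 8 for chemokines, 12 for interleukins, 25 for growth factors, 11 for mucins, 16 for matrix, 9 for complement and coagulation, 9 for quiescence, 12 for transcription factors, 10 for progenitor genes and 15 for transport. With the 99th percentile of the olfactory receptor genes, endothelial markers fell to 4, leukocyte markers to 5 and gap junction genes to 3. Neuroendocrine markers numbered 5 with the main setting, 10 with the 90th percentile and 8 with the lowest array in place of the mean.

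Leaving out 1 replicate gave between 18666 and 19310 genes and between 12747 and 13010 protein-coding genes above the level, a median SD between 0.0576 and 0.076, and between 5 and 8 neuroendocrine markers. The 8 came without replicate 1. No other list moved by more than 1.5 times. Quantile normalisation of the 3 arrays, median centring and the median in place of the mean moved no count by more than 1.5 times and none of 335 gene means by more than its SD. No paired analysis was possible because no groups were compared and no test was run.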

Other observations

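Groups of genes that were chosen after their values were seen add to this description. All 8 NF-kB subunit and inhibitor genes were above the upper level, against 39.8% of all protein-coding genes. TNFAIP3 gave 10.59 ± 0.062, RELA 10.30 ± 0.080 and NFKBIA 9.67 ± 0.069, and RELB was the lowest at 7.35 ± 0.060. All 10 AP-1 and immediate early factors were above the lower level and 6 above the upper level, against 72.0% and 39.8% of all protein-coding genes. FOSL1, which encodes FRA1, gave 9.96, 10.19 and 10.11, while FOS gave 6.34, 6.43 and 6.36 and ATF3 gave 6.04, 6.18 and 6.23. Metallothioneins ranged between 5.55 for MT1H and 13.10 for MT2A, with MT1X at 9.35 ± 0.13 and MT1E at 9.33 ± 0.077, although these copies share sequence. Among 21 S100 and annexin genes, ANXA5 (11.77 ± 0.058), S100A10 (11.36 ± 0.068) and S100A11 (11.16 ± 0.064) were the highest, and S100A8 (4.50 ± 0.016) and ANXA13 (4.49 ± 0.092) the lowest.

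Long non-coding RNAs were mostly at background, as 1896 of 10629 (17.8%) were above the lower level. MALAT1 gave 11.63, 11.71 and 11.71 and UCA1, a transcript of urothelial and other carcinomas, gave 11.42, 11.39 and 11.47. The snoRNA host genes GAS5 (11.06 ± 0.050), SNHG16 (10.62 ± 0.092) and SNHG1 (10.27 ± 0.028) followed. CCAT1 gave 9.50 ± 0.14 and NEAT1 8.90 ± 0.062, whereas HOTAIR (5.58 ± 0.038), MEG3 (5.52 ± 0.085) and HULC (3.85 ± 0.084) were below the lower level. The 10 genes above the lower level with the largest SD were 7 long non-coding RNAs, 2 pseudogenes and 1 protein-coding gene known only as LOC107987020. PCNA-AS1 gave 7.72, 7.88 and 6.76, while PCNA had 10.77 ± 0.025.

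Promoters of bright and dim protein-coding genes differed in composition. In the 250 bases before the start, the top 10% by signal had a median GC content of 64.8% with 22 CG dinucleotides, the genes at or below the lower level 54.0% with 6, and all genes 62.8% with 18. The letters TATAAA were found in 7.18%, 15.5% and 8.56% of these windows. Genes and promoters are not replicates, and no test was made.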
